A study of Mus musculus with 149 samples.

Results

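The genes described here fold proteins in the endoplasmic reticulum (ER) and move secretory proteins into and out of it. The rule for them was chosen with earlier results of these data known. It takes genes by symbol and by no cut on a measured value: every measured gene whose symbol starts with Pdia, Sec11, Sec22, Sec23, Sec24, Sec31, Sec61, Sec62, Sec63, Dnajb, Creb3 or Hspa, and the genes Hyou1, Xbp1, Atf4, Ddit3, Canx and Calr. This gave 54 of the 13494 genes measured. They fall into 11 chaperones and disulfide isomerases of the ER lumen, 5 proteins of the translocon and the signal peptidase, 11 COPII coat and Sec22 proteins, 8 transcription factors and 19 other Hsp70 and DnaJB proteins, most of which work outside the ER lumen. The rule also takes 10 symbols that were not analysed here: Calr, Dnajb3, Dnajb6-ps, Dnajb7, Hspa8, Hspa9-ps1, Sec31b, Sec61a2, Sec61b and Sec61g.

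Secretory proteins enter the ER through the Sec61 channel, lose their signal peptide to the signal peptidase, and fold with the help of the Hsp70 chaperone BiP (Hspa5), its DnaJ partners, the lectin chaperones calnexin and calreticulin, and the protein disulfide isomerases. Folded cargo leaves in vesicles coated with COPII, whose inner layer is made of Sec23 and Sec24 proteins and whose outer layer holds Sec31. When unfolded protein accumulates, the unfolded protein response raises many of these genes through Xbp1, Atf6 and Atf4, and in the lung the goblet cells that make mucus and the plasma cells that make antibody are known for a large secretory machinery.

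The study measured lung RNA of BALB/c mice on Affymetrix arrays with 3' labelling, with 1 animal per array. Mice were sensitized with ovalbumin (OVA) or were naive, received saline, buffer (given as 0.1% MSA in the labels) or 150, 500 or 1500 ng of TSLP, an epithelial cytokine that acts in allergic airway inflammation, and were killed 6 or 24 h later. The sources used here give neither age nor the way of sensitization. In the order saline, buffer, 150, 500 and 1500 ng, the OVA groups held 7, 8, 8, 7 and 7 arrays at 24 h and 8, 8, 7, 8 and 8 arrays at 6 h. The naive groups held 8, 7, 6, 6 and 8 arrays at 24 h and 8, 6, 8, 8 and 8 arrays at 6 h, where the design text gives 8 animals to each of the 20 groups.

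All values are log2 expression (RMA), and levels are compared for 1 gene across groups, never between genes. Groups were compared in limma with 1 mean per group over all 20 groups, a gene was called at an adjusted p below 0.05 over all 13494 genes, and the number of arrays limits the precision. Differences are log2, the first-named group minus the second, and the standard error (SE) follows. Lung markers were at a mean log2 level of 11.99 to 12.44 on every array (10 of 10 measured, among them Sftpc and Scgb1a1). On 6 arrays Krt4 and Krt13, keratins of the squamous gullet, were more than 2 log2 units above their medians; 5 of these arrays are from 6 h and the other from 24 h. They are 2 naive buffer arrays, 1 OVA buffer array, 1 naive 150 ng array and 1 OVA 1500 ng array at 6 h, and 1 naive buffer array at 24 h. In whole lung, fewer cells of a type and less RNA per cell cannot be told apart.

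A measure of RNA quality moved with time and dose. The signal of the beta-actin 3' probe set minus that of its 5' probe set, which grows as RNA breaks down or 5' labelling shortens, averaged 2.45 ± 0.22 (SD) in OVA saline lungs, 2.57 ± 0.26 with buffer, 2.29 ± 0.17 with 150 ng, 1.79 ± 0.31 with 500 ng and 1.26 ± 0.12 with 1500 ng of TSLP at 6 h. In naive lungs at 6 h it was 2.42 ± 0.51, 2.14 ± 0.31, 1.64 ± 0.31, 1.44 ± 0.21 and 1.61 ± 0.26 in the same order. At 24 h all 10 group means lay between 1.25 and 1.60, with OVA 1500 ng lungs at 1.60 ± 0.23 and OVA buffer lungs at 1.28 ± 0.096. The difference in this measure is therefore given beside each comparison of 2 groups, and each was refitted with it as a covariate. Neither was done for TSLP against saline in place of buffer. Where this measure separates the groups, its part and that of the treatment cannot be told apart.

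The ER stress element, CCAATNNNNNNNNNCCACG, through which Atf6 and Xbp1 are known to act, was searched on both strands from 250 bases before to 50 after the annotated start of each gene (RefSeq, GRCm38.p6). It was present in 3 of the 48 members with such a window (6.25%), against 37 of 27025 genes (0.137%). These 3 promoters, of the chaperones Hspa5 and Canx (calnexin) and the disulfide isomerase Pdia6, are shown because no other member window held the element. Whether the element goes with the differences that follow was not tested. Capitals mark the fixed letters of the element and, in Hspa5, the letters TGACGTG of a second motif, which lies apart from it.
Hspa5 (chr2:34771840-34772139, plus strand): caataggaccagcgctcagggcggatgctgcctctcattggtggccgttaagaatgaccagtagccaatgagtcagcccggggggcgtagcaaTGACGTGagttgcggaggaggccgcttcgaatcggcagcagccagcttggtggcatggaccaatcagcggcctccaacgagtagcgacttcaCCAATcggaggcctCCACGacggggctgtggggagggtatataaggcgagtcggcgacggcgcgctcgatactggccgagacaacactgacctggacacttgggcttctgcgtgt
Canx (chr11:50325624-50325923, minus strand): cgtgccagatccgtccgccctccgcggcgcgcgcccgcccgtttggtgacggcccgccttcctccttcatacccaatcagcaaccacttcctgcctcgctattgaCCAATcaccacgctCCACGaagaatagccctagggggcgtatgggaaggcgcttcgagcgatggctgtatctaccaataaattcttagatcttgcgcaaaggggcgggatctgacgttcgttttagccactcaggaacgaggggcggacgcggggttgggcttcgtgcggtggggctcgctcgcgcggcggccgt
Pdia6 (chr12:17266339-17266638, plus strand): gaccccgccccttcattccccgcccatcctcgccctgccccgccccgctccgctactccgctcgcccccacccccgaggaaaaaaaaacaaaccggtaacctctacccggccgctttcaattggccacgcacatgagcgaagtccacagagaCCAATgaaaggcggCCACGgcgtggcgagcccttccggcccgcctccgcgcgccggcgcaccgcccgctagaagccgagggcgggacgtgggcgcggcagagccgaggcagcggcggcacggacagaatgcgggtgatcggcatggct
The second motif, TGACGTG, bound by Xbp1 and Atf6 in other promoters, was in 4 of 48 member windows (8.33%; Hspa5, Sec24d, Sec23a and Hspa1l), against 601 of 27025 genes (2.22%). A heat shock element, GAANNTTCNNGAA, was in 3 of 48 (6.25%; Sec62, Dnajb6 and Creb3l3), against 179 of 27025 (0.662%). No searched motif overlapped another in the 3 printed windows. A match is a stretch of letters and not a measured binding site.

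Across the 20 groups the members differed widely in how far their group means ranged, from 0.18 log2 units for Hspa14, an Hsp70-like protein of the cytosol, to 2.64 for Hspa1a, the stress-inducible cytosolic Hsp70. After Hspa1a came Hyou1, a large Hsp70-like chaperone of the ER lumen, at 2.43, and Hspa1b, the near-identical copy of Hspa1a, at 2.34, and the fourth was Sec24a, a cargo-binding COPII subunit, at 1.27. Hspa1a and Hspa1b share nearly all of their sequence, so their probe sets may not tell the 2 genes apart. Hspa5 had its lowest group mean in naive saline lungs at 6 h (12.25) and its highest in OVA 500 ng lungs at 24 h (13.01), and so did Pdia6 (11.28 and 11.93), Dnajb11, a BiP co-chaperone (11.11 and 11.74), and Hyou1 (7.93 and 10.36). Of the 54 members, 17 had their lowest group mean in naive saline lungs at 6 h, where beta-actin 3' minus 5' averaged 2.42. The same count was not made over all genes, so it cannot be read as a trait of the members. Atf4, the translationally controlled factor of the integrated stress response, ranged by only 0.29 (12.77 to 13.05), and Sec11a, a catalytic subunit of the signal peptidase, by 0.25 (12.19 to 12.43).

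**Figure D1:**
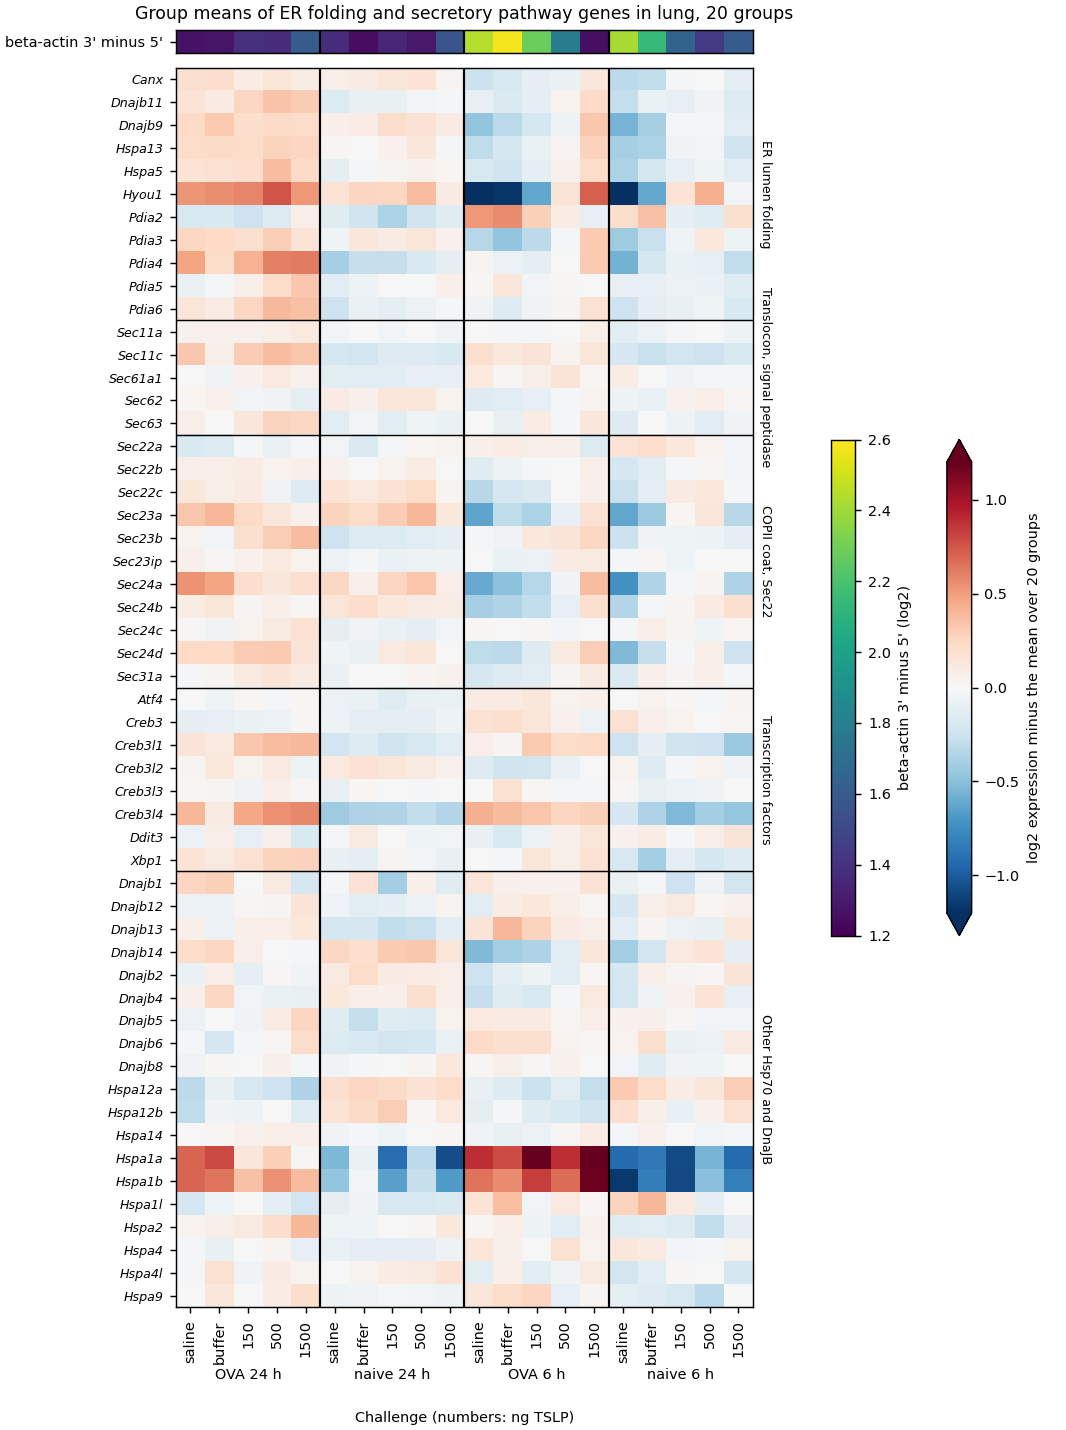
Group means of the 54 members (rows, by role) in the 20 groups (columns: OVA 24 h, naive 24 h, OVA 6 h and naive 6 h, each as saline, buffer, 150, 500 and 1500 ng TSLP), as log2 expression minus the member's mean over the groups; colours stop at -1.2 and 1.2, and the top strip gives the group mean of beta-actin 3' minus 5' (log2). Hyou1, Sec24a, Sec23a and Dnajb9 are low where the strip is high, and Creb3l4 and Sec11c are higher in OVA than in naive columns.

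Sensitization was compared first, in mice that received no TSLP. In saline-challenged lungs at 24 h, 17 members were higher and 3 lower in OVA than in naive mice, against 14% of all genes higher and 16.4% lower. The median difference of the members was 0.091, and that of all genes -0.028. By role, 5 of 11 ER lumen genes rose and 0 fell, 4 of 5 translocon and signal peptidase genes rose and 0 fell, 3 of 11 COPII and Sec22 genes rose and 1 fell, 3 of 8 factors rose and 0 fell, and 2 of 19 other heat shock genes rose and 2 fell. Beta-actin 3' minus 5' differed by -0.10, and with it as a covariate 21 members were called, among them all 20 of the first fit, against 33.4% of all genes.

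Among the factors, Creb3l4, a membrane-anchored member of the Creb3 family, read 7.41, 8.10 and 8.18 (lowest, median and highest array, the form used from here on) in OVA saline lungs at 24 h, against 6.85, 7.03 and 7.41 in naive saline lungs. The highest naive array reached the lowest OVA array, and otherwise the groups were apart, and the difference was 0.82 (SE 0.13, adjusted p = 1.65e-07), or 1.77-fold. At 6 h it read 7.60, 7.82 and 8.45 in OVA saline lungs, against 7.19, 7.30 and 7.48 in naive saline lungs. Every OVA array was above every naive one (0.62, SE 0.13, adjusted p = 8.09e-05). Creb3l1, the family member OASIS, known from cells that secrete matrix and mucus, read 9.51, 9.88 and 10.06 in OVA and 9.23, 9.46 and 9.64 in naive saline lungs at 24 h, with overlapping groups and a difference of 0.39 (SE 0.093, adjusted p = 0.000543). Xbp1, the factor spliced by the stress sensor Ire1, was higher at 24 h, by 0.25 (SE 0.074, adjusted p = 0.00477), and at 6 h, where it differed by 0.19 (SE 0.071, adjusted p = 0.0346). Total Xbp1 RNA is what the array reads, and spliced and unspliced forms are not separated by these values. Atf4 was higher by 0.11 (SE 0.036, adjusted p = 0.0204) in OVA saline lungs at 6 h and differed by 0.068 (SE 0.037, adjusted p = 0.161) at 24 h. Ddit3 (CHOP), a factor of prolonged ER stress, differed by -0.043 (SE 0.084, adjusted p = 0.757) at 24 h and -0.14 (SE 0.081, adjusted p = 0.202) at 6 h, neither past the threshold.

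In the ER lumen, Pdia4 (ERp72), a disulfide isomerase that works with BiP, had the largest difference of its role. It read 7.46, 8.16 and 8.83 in OVA and 6.77, 7.28 and 7.46 in naive saline lungs at 24 h. The lowest OVA array was level with the highest naive array and just above it, and the difference was 0.87 (SE 0.14, adjusted p = 2.72e-07), or 1.82-fold. Pdia6, another BiP-associated isomerase, read 11.22, 11.74 and 12.08 in OVA and 10.96, 11.28 and 11.48 in naive lungs and was higher by 0.40 (SE 0.086, adjusted p = 0.000119), with overlapping groups. Hspa5 read 12.52, 12.81 and 13.03 in OVA and 12.33, 12.53 and 12.73 in naive lungs and was higher by 0.27 (SE 0.069, adjusted p = 0.000958). The groups overlapped for Hspa5 too. Dnajb11 was higher by 0.33 (adjusted p = 0.000219), and Pdia3, the isomerase that binds calnexin and calreticulin, by 0.30 (adjusted p = 0.00581). Canx (0.12, adjusted p = 0.102), Dnajb9 (ERdj4, a BiP co-chaperone; 0.19, adjusted p = 0.125) and Hyou1 (0.37, adjusted p = 0.237) did not pass the threshold.

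At the channel and the peptidase, Sec11c, the second catalytic subunit of the signal peptidase, read 12.21, 12.54 and 13.04 in OVA and 11.99, 12.03 and 12.12 in naive saline lungs at 24 h. Every OVA array was above every naive array (0.53, SE 0.073, adjusted p = 2.82e-09), and the naive arrays spanned little more than 0.1 log2 units. Sec11a was higher by only 0.089 (adjusted p = 0.016). The Sec61a1 channel subunit was higher by 0.12 (adjusted p = 0.00503), while Sec62, a channel partner for post-translational entry and ER turnover, differed by -0.077 (adjusted p = 0.118). Sec63, the partner that recruits BiP to the channel, was higher by 0.21 (adjusted p = 0.0162), but its 4 other probe sets gave -0.12 (adjusted p = 0.0743), -0.11 (adjusted p = 0.557), -0.25 (adjusted p = 0.034) and 0.23 (adjusted p = 0.0458), in both directions. For the COPII coat, Sec23b, an inner-coat GTPase activator, was higher by 0.29 (SE 0.066, adjusted p = 0.000304) and Sec24d, a cargo-binding subunit, by 0.29 (SE 0.095, adjusted p = 0.0118). Sec22b, a SNARE of ER to Golgi traffic, and Sec31a, of the outer coat, differed by 0.029 (adjusted p = 0.691) and 0.063 (adjusted p = 0.479). Sec22a, a Sec22 paralog, fell (-0.16, adjusted p = 0.0323).

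The cytosolic heat shock genes moved in both directions. Hspa1b read 11.86, 12.39 and 12.73 in OVA and 10.30, 10.47 and 11.03 in naive saline lungs at 6 h, and every OVA array was above every naive one (1.81, SE 0.28, adjusted p = 5.59e-07, or 3.51-fold). At 24 h the same gene was higher by 1.18 (SE 0.29, adjusted p = 0.000909), with overlapping groups. Hspa1a was higher by 1.81 (adjusted p = 0.000551) at 6 h and by 1.24 (adjusted p = 0.0196) at 24 h. Dnajb1, the inducible DnaJ partner of cytosolic Hsp70, differed by 0.22 (adjusted p = 0.153) and 0.27 (adjusted p = 0.0744) at 6 and 24 h. Hspa12a and Hspa12b, distant Hsp70 relatives (Hspa12b is known from endothelial cells), were lower at 24 h, with differences of -0.51 (SE 0.10, adjusted p = 3.61e-05) and -0.47 (SE 0.084, adjusted p = 2.99e-06) and no overlap between OVA and naive arrays.

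The same contrast could be made in 3 further sets of arrays, none of which shares an array with another. In saline lungs at 6 h, 14 members were higher and 3 lower in OVA mice (10.9% and 12.6% of all genes). In buffer lungs at 6 h, 12 were higher and 5 lower (15.7% and 18%), and in buffer lungs at 24 h, 5 and 2 (5.03% and 3.53%). In these 3 comparisons beta-actin 3' minus 5' differed by 0.028, 0.44 and 0.034. Creb3l4 and Sec11c were higher in all 4 comparisons, and Hspa12a was lower in all 4; 7 members were higher in at least 3 (also Creb3l1, Pdia4, Xbp1, Hspa1a and Hspa1b) and 2 were lower in at least 3 (also Hspa12b). For Creb3l4 the differences were 0.74 with buffer at 6 h and 0.48 with buffer at 24 h (adjusted p = 7.95e-06 and 0.00993), and for Sec11c 0.39 and 0.31 (adjusted p = 2.68e-05 and 0.00293). Pdia4 was higher by 0.59 (adjusted p = 0.000432) in saline lungs at 6 h and by 0.49 (adjusted p = 0.0138) in buffer lungs at 24 h, and differed by 0.13 (adjusted p = 0.501) in buffer lungs at 6 h. In those buffer lungs at 6 h the 5 members that fell were Hspa12a, Sec24b, Ddit3, Sec31a and Hspa14, with differences of -0.38 to -0.14. With the beta-actin covariate Ddit3, at -0.19 (adjusted p = 0.098), and Hspa14, at -0.10 (adjusted p = 0.0873), were not called, and with the mean of its probe sets Hspa14 was higher in OVA lungs, by 0.17 (adjusted p = 0.000619). In these buffer lungs the median difference of 8 muscle markers was -1.44, with 2 of them lower in OVA.

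Markers of secretory cells moved with sensitization. All 12 measured goblet cell markers were higher in OVA than in naive saline lungs at 24 h (median difference 3.15), and the mean level of this list ran 10.31 to 11.59 over OVA arrays and 7.37 to 8.82 over naive arrays. Of 11 plasma cell markers, 9 were higher and 1 lower, with list means of 11.04 to 12.16 in OVA and 9.96 to 10.08 in naive arrays. Creb3l1 is itself one of the goblet cell markers, and the part of these cells in the members' differences was not tested. Another transcript read at both ends, pyruvate carboxylase, had a 3' minus 5' that differed by 0.68 between OVA and naive saline lungs at 24 h and by 0.37 at 6 h. With it as a covariate, 7 members were called at 24 h (13.3% of all genes) and 9 at 6 h (13.9%) in saline lungs, shares near those of all genes. At 24 h these were Creb3l4 (0.49, adjusted p = 0.00905), Pdia4 (0.60, adjusted p = 0.00419), Sec11c (0.34, adjusted p = 0.00121) and Sec24d (0.34, adjusted p = 0.0248) as higher, and Hspa12a, Hspa12b and Dnajb2, named after its value was seen, as lower. For the transferrin receptor (Tfrc), the 3' probe set minus the middle one was 1.503, 2.067 and 2.930 in OVA and 0.959, 1.088 and 1.253 in naive saline lungs at 24 h, and 1.046, 1.514 and 2.268 in OVA and -0.007, 0.784 and 0.937 in naive saline lungs at 6 h. The groups did not overlap at either time, so this measure and sensitization cannot be told apart in saline lungs. In buffer lungs it differed by 0.57 at 24 h and 0.47 at 6 h. Between TSLP and buffer in OVA lungs at 24 h it differed by 0.38, 0.39 and 0.0036 at 150, 500 and 1500 ng. At 6 h these differences were -0.035, 0.32 and 0.34. Between buffer and saline in OVA lungs at 24 h it differed by -0.37.

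**Figure D2:**
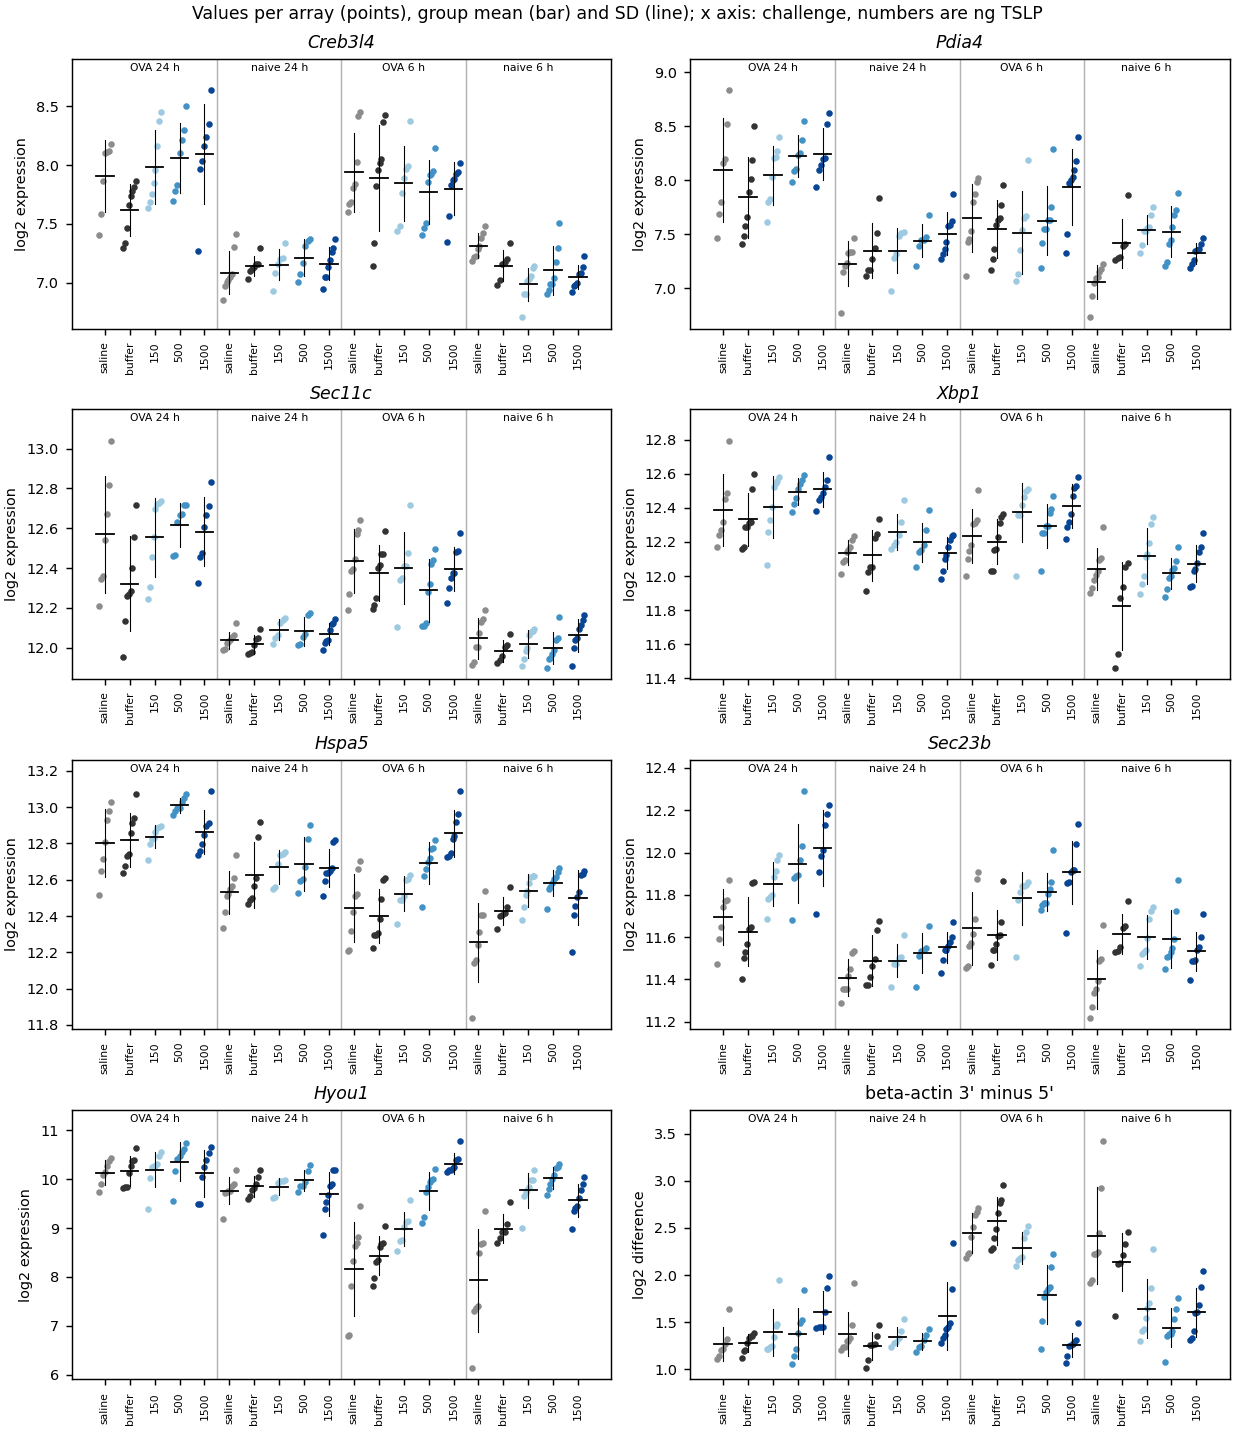
Log2 expression of Creb3l4, Pdia4, Sec11c, Xbp1, Hspa5, Sec23b and Hyou1 on every array (points), with group mean (bar) and SD (line), in the 20 groups, and beta-actin 3' minus 5' (log2) of the same arrays in the last panel. Creb3l4 and Sec11c lie higher in OVA than in naive groups at both times, while Hyou1 at 6 h climbs over the OVA doses as the beta-actin measure falls.

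TSLP was compared with buffer next, at 24 h in OVA mice, where beta-actin 3' minus 5' differed least among the TSLP comparisons with many calls (0.11, 0.099 and 0.32 at 150, 500 and 1500 ng). At 1500 ng, 18 members rose and 9 fell, against 21% and 17.5% of all genes. At 500 ng 8 rose and 1 fell (7.43% and 4.35%), and at 150 ng 3 rose and 1 fell (7.2% and 3.26%). At 1500 ng the ER lumen list had 4 of 11 members up and 0 down, the translocon and peptidase list 3 of 5 up and 1 down, COPII and Sec22 3 of 11 up and 2 down, the factors 4 of 8 up and 2 down, and the other heat shock genes 4 of 19 up and 4 down. With the beta-actin covariate 18 members were called at 1500 ng, 17 of them among the first 27, against 32.7% of all genes. Pyruvate carboxylase 3' minus 5' differed by 0.25, 0.22 and 0.16 at 150, 500 and 1500 ng. In the fit with that covariate 1 member rose at 150 ng and 4 at 500 ng, and none fell. Over all 13494 genes that fit called 165 up and 66 down at 150 ng, and 341 and 172 at 500 ng. At 1500 ng it called 15 members up and 8 down, with 2522 up and 2155 down over all genes. With the mean of each gene's probe sets in place of the brightest, 12 members rose and 8 fell at 1500 ng. Over all 13494 genes 2468 then rose and 2240 fell. The 3 doses share their buffer arrays.

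Creb3l4 was again the factor with the largest difference. It read 7.41, 8.10 and 8.18 with saline, 7.30, 7.70 and 7.86 with buffer, 7.64, 7.90 and 8.45 with 150 ng, 7.70, 8.11 and 8.50 with 500 ng and 7.27, 8.17 and 8.63 with 1500 ng. The groups overlapped, 6 of the 7 arrays at 1500 ng lay above the buffer mean, and the differences from buffer were 0.36 (adjusted p = 0.0462) at 150 ng, 0.44 (adjusted p = 0.0167) at 500 ng and 0.47 (SE 0.13, adjusted p = 0.00205) at 1500 ng. The saline median lay above the buffer median, and against saline the 1500 ng difference was 0.18 (adjusted p = 0.312), not past the threshold. Creb3l1 rose by 0.27 (SE 0.093, adjusted p = 0.014) and Xbp1 by 0.18 (SE 0.074, adjusted p = 0.0464). Ddit3 fell by 0.26 (adjusted p = 0.00945) and Atf4 differed by 0.076 (adjusted p = 0.0959). Creb3l2, a family member known from cartilage, differed by -0.19 (adjusted p = 0.0117) and Creb3 itself, the founding member, by 0.11 (adjusted p = 0.0106). Creb3l4 and Creb3l1 were also called with the beta-actin covariate. The calls of Xbp1, then 0.18 (adjusted p = 0.0554), Ddit3, then -0.19 (adjusted p = 0.0575), Creb3l2, then -0.13 (adjusted p = 0.0872), and Creb3, then 0.046 (adjusted p = 0.159), were lost in that fit.

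In the ER lumen Pdia4 read 7.94, 8.19 and 8.62 at 1500 ng, against 7.41, 7.78 and 8.50 with buffer, and rose by 0.40 (SE 0.14, adjusted p = 0.0149) with overlapping groups. Pdia5, a less studied isomerase of the same family, rose by 0.35 (SE 0.061, adjusted p = 1.92e-06), Pdia6 by 0.27 (adjusted p = 0.00979) and Dnajb11 by 0.20 (adjusted p = 0.0203). Hspa5 differed by 0.042 (adjusted p = 0.664), Hyou1 by -0.039 (adjusted p = 0.915), Canx by -0.13 (adjusted p = 0.0699), Dnajb9 by -0.099 (adjusted p = 0.422) and Pdia3 by -0.081 (adjusted p = 0.5), none past the threshold. At the peptidase, Sec11c read 12.33, 12.61 and 12.83 at 1500 ng, against 11.95, 12.28 and 12.72 with buffer, and rose by 0.23 (adjusted p = 0.0234), 0.30 (adjusted p = 0.0038) and 0.26 (adjusted p = 0.00241) at 150, 500 and 1500 ng. Its dimmer second probe set differed by -0.11 (adjusted p = 0.437) at 1500 ng. Sec63 rose by 0.25 (adjusted p = 0.00283) and Sec61a1 by 0.10 (adjusted p = 0.0211), while Sec62 was lower in every 1500 ng array than in every buffer array (-0.17, SE 0.038, adjusted p = 0.000188). Of the genes named as rising or falling in this paragraph, all but Sec61a1, then at 0.065 (adjusted p = 0.131), were also called with the covariate.

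In the COPII coat, Sec23b read 11.40, 11.60 and 11.86 with buffer, 11.69, 11.84 and 11.99 with 150 ng, 11.68, 11.89 and 12.29 with 500 ng and 11.71, 12.01 and 12.22 with 1500 ng, and rose by 0.23 (adjusted p = 0.0163), 0.32 (adjusted p = 0.000723) and 0.40 (SE 0.066, adjusted p = 9.32e-07). Sec23a, its paralog, fell to 10.23, 10.52 and 10.65 at 1500 ng, against 10.65, 10.78 and 11.06 with buffer (-0.34, SE 0.13, adjusted p = 0.0329). With the covariate Sec23b was still called and Sec23a was not, at -0.29 (adjusted p = 0.091). Both genes had overlapping groups. Sec24d, Sec31a and Sec22b differed by -0.082 (adjusted p = 0.524), 0.06 (adjusted p = 0.459) and -0.018 (adjusted p = 0.79). Among the other heat shock genes Dnajb6, a chaperone that holds back aggregation, was higher in every 1500 ng array than in every buffer array (0.42, SE 0.079, adjusted p = 8.03e-06). Dnajb1 fell to 11.51, 11.62 and 11.75 at 1500 ng, against 11.58, 12.08 and 12.70 with buffer (-0.49, SE 0.12, adjusted p = 0.000593), and the DnaJ genes Dnajb4 and Dnajb14 and Hspa12a also fell (-0.33, -0.27 and -0.28). In the covariate fit Dnajb14, at -0.22 (adjusted p = 0.0662), and Hspa12a, at -0.24 (adjusted p = 0.0683), were no longer called. Hspa1a and Hspa1b differed by -0.78 (adjusted p = 0.146) and -0.27 (adjusted p = 0.504).

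The members that rose with TSLP at 24 h overlapped with those that were higher after sensitization. Of the 17 members higher in OVA than in naive saline lungs and the 18 that rose with 1500 ng, 10 were shared: Creb3l1, Creb3l4, Dnajb11, Pdia4, Pdia6, Sec11c, Sec23b, Sec61a1, Sec63 and Xbp1. That is 10 of 17 and 10 of 18, where 769 genes in all were shared, or 40.8% of the genes higher after sensitization and 27.2% of the genes higher with TSLP. These 2 comparisons share no array, and no test of the overlap was made. Of 12 goblet cell markers 8 rose with 1500 ng (median 0.97), with list means of 9.65 to 11.83 on 1500 ng and 9.47 to 11.18 on buffer arrays. Of 11 plasma cell markers 3 rose and 1 fell, and all 3 measured fat markers fell (median -2.64). The part of these cells in the members' differences was not tested. Against saline in place of buffer 13 members were called at 1500 ng, 10 as higher and 3 as lower (15.8% and 13.3% of all genes), and Sec23b (0.33, adjusted p = 0.0001) and Pdia5 (0.41, adjusted p = 3.71e-07) were among the higher ones, while Pdia4 (0.15, adjusted p = 0.462), Sec11c (0.013, adjusted p = 0.922) and Xbp1 (0.12, adjusted p = 0.243) were not called.

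At 6 h in OVA mice most members differed between 1500 ng of TSLP and buffer, and so did most genes on the array. Of the members 28 rose and 10 fell, against 24.8% and 35.9% of all genes, and the median difference was 0.18 for the members and -0.062 for all genes. In the ER lumen 9 of 11 genes rose and 2 fell (median 0.41), and in the COPII and Sec22 list 9 of 11 rose and 1 fell (median 0.26). Of the translocon and peptidase genes 3 of 5 rose and 0 fell, of the factors 4 of 8 rose and 2 fell, and of the other heat shock genes 3 of 19 rose and 5 fell (median -0.022). At 500 ng 20 members rose and 6 fell (19% and 22% of all genes). At 150 ng limma called no member (0.163% of all genes), and 11 had an unadjusted p below 0.05. Beta-actin 3' minus 5' differed by -0.29, -0.78 and -1.31 at 150, 500 and 1500 ng, so dose and this measure moved together. Of 12 goblet cell markers 3 rose at 1500 ng and of 11 plasma cell markers 5, and their part in the result was not tested.

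Hyou1 changed most. At 6 h it read 6.79, 8.48 and 9.46 with saline, 7.81, 8.48 and 9.04 with buffer, 8.52, 9.02 and 9.57 with 150 ng, 9.11, 9.89 and 10.21 with 500 ng and 10.15, 10.24 and 10.78 with 1500 ng. Every array at 500 or 1500 ng was above every buffer array, and the 1500 ng difference was 1.88 (SE 0.23, adjusted p = 2.17e-12). With the beta-actin covariate it was 0.18 (adjusted p = 0.626), and a second, dimmer Hyou1 probe set differed by 0.32 (adjusted p = 0.00117) without the covariate. Hspa5 read 12.72, 12.83 and 13.09 at 1500 ng, against 12.22, 12.35 and 12.61 with buffer, and every 1500 ng array was above every buffer array (0.45, SE 0.067, adjusted p = 2.72e-09). Its other probe set differed by 0.41 (adjusted p = 1.7e-08), and the covariate left 0.097 (adjusted p = 0.453). Pdia3 differed by 0.78 (SE 0.086, adjusted p = 7.38e-14), Canx by 0.33 (adjusted p = 8.57e-08), Dnajb11 by 0.41 (adjusted p = 2.9e-07), Pdia4 by 0.39 (adjusted p = 0.00892) and Pdia6 by 0.34 (adjusted p = 0.000202). Pdia2, an isomerase known from the pancreas, fell by 0.67 (adjusted p = 3.79e-06). With the covariate the Pdia3 and Pdia2 differences were 0.074 (adjusted p = 0.543) and -0.14 (adjusted p = 0.637).

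In the covariate fit 5 members were called at 1500 ng in place of 38, against 7.72% of all genes, and 4 of the 5 were among the 38. Dnajb9 read 11.91, 12.03 and 12.34 at 1500 ng, against 11.22, 11.36 and 11.71 with buffer, and every 1500 ng array was above every buffer array. It rose by 0.65 (SE 0.09, adjusted p = 6.16e-10) without and 0.44 (SE 0.12, adjusted p = 0.0144) with the covariate. Sec24a read 9.65, 9.97 and 10.27 at 1500 ng, against 8.67, 9.12 and 9.55 with buffer. Its rise was 0.86 (SE 0.15, adjusted p = 3.89e-07) without and 0.78 (SE 0.20, adjusted p = 0.0107) with the covariate, again with the groups apart. The rise of Sec24d was 0.61 (SE 0.092, adjusted p = 6.1e-09) without and 0.52 (SE 0.12, adjusted p = 0.00562) in the covariate fit, also with the groups apart. The other shared call, Hspa13 (an ER-associated Hsp70, also called Stch, named after its values were seen), gave 0.49 (adjusted p = 4.81e-08) without it, against 0.36 (adjusted p = 0.0213) in that fit. Sec61a1 was called only with the covariate, at 0.14 (adjusted p = 0.0316), and differed by -0.002 (adjusted p = 0.965) without it. At 500 ng the covariate left 3 calls in place of 26 (7.99% of all genes): Sec24d (0.38, adjusted p = 0.014), Sec61a1 (0.22, adjusted p = 6e-05) and Hspa4, a cytosolic Hsp110 protein named after its value was seen (0.17, adjusted p = 0.0154). Among the factors Xbp1 differed by 0.21 (adjusted p = 0.0083) and 0.20 (adjusted p = 0.185) in the 2 fits, Ddit3 by 0.33 (adjusted p = 0.0002) and 0.061 (adjusted p = 0.756), and Creb3 by -0.26 (adjusted p = 1.47e-10) and -0.0014 (adjusted p = 0.987). The 3 probe sets of Creb3 disagreed, and their mean differed by 0.04. The other probe sets of Xbp1 gave larger rises in this comparison, printed with the slopes below.

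**Figure D3:**
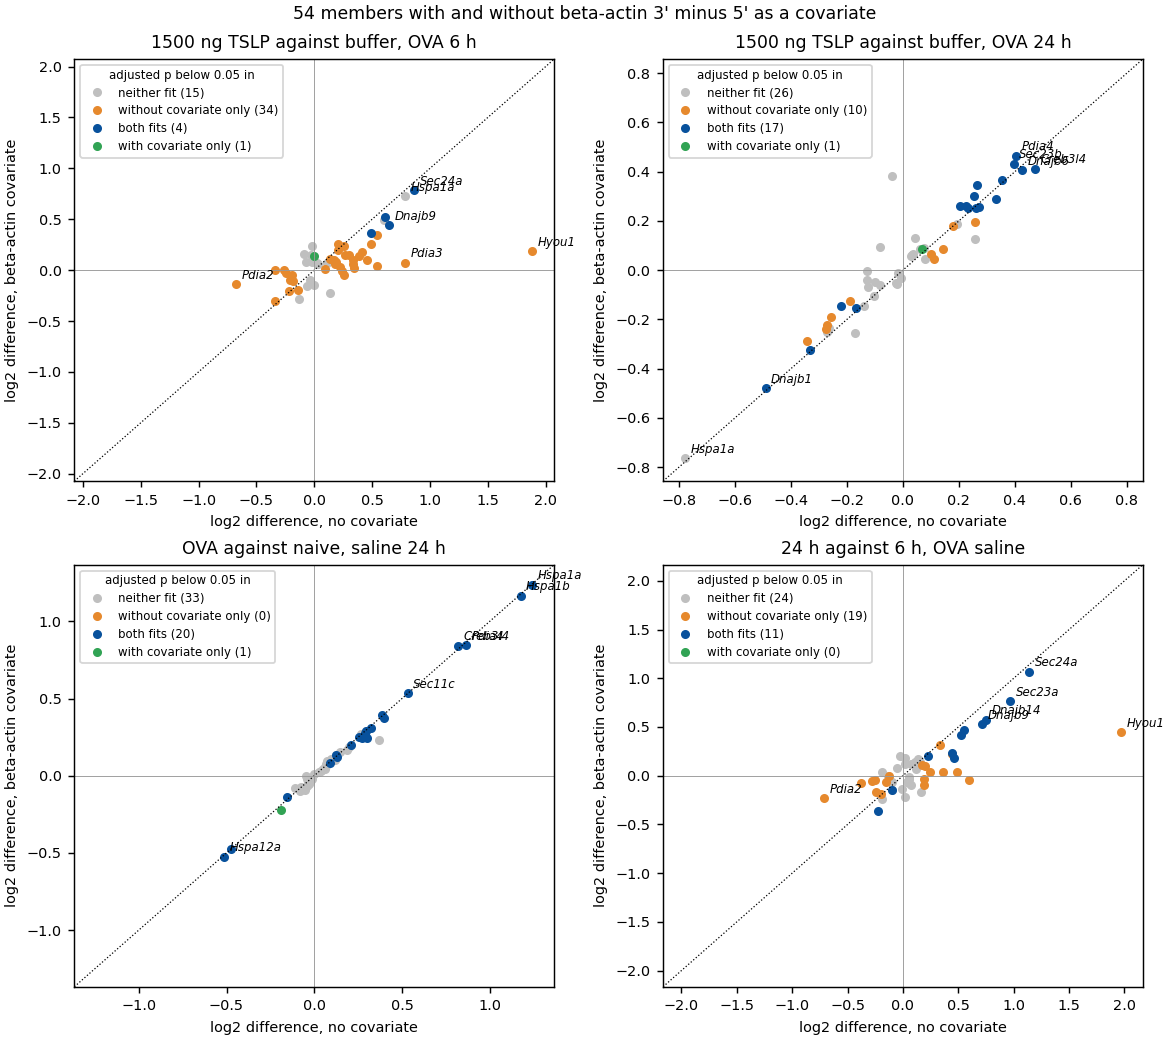
Log2 differences of the 54 members without (x axis) and with (y axis) beta-actin 3' minus 5' as a covariate in 4 comparisons, coloured by the fit in which each was called at an adjusted p below 0.05, with a dotted line of equality. For 1500 ng TSLP in OVA lungs at 6 h and for 24 h against 6 h most points lie nearer 0 with the covariate, and for OVA against naive saline lungs at 24 h the points lie along the line.

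In naive mice TSLP calls were confined, but for 2, to 6 h. At 150, 500 and 1500 ng, 10, 15 and 4 members rose at 6 h and 3, 5 and 2 fell, against 11%, 15.8% and 5.53% of all genes up and 16.2%, 26.2% and 9.82% down. Against saline in place of buffer the 1500 ng counts were 15 up and 3 down (17.9% and 24.8% of all genes), so the count differed with the control used. Beta-actin 3' minus 5' averaged 2.42 with saline, 2.14 with buffer and 1.61 with 1500 ng. The part of this measure and that of the control solution cannot be told apart. Hyou1 read 6.13, 7.95 and 9.35 with saline, 8.68, 8.92 and 9.53 with buffer, 9.01, 9.81 and 10.18 with 150 ng, 9.68, 10.04 and 10.31 with 500 ng and 8.98, 9.54 and 10.04 with 1500 ng. The 500 ng arrays were all above the buffer arrays (1.04, SE 0.24, adjusted p = 0.000326), while the 1500 ng difference was 0.58 (adjusted p = 0.0865). Sec23a rose by 0.46 (adjusted p = 0.00983) and 0.57 (adjusted p = 0.00062) at 150 and 500 ng and differed by 0.10 (adjusted p = 0.647) at 1500 ng. Dnajb9 (0.38, 0.38 and 0.27), Xbp1 (0.29, 0.19 and 0.25) and Canx (0.28, 0.29 and 0.18) rose at all 3 doses, and with the beta-actin covariate these 3 were called at 150 ng and not at 500 or 1500 ng. At 1500 ng Creb3l1 fell by 0.34 (adjusted p = 0.0117) and Sec22a by 0.24 (adjusted p = 0.00416). Beta-actin 3' minus 5' differed by -0.49, -0.70 and -0.53, and with it as a covariate 6, 9 and 0 members were called (15.4% of all genes at 500 ng), with 10 members at an unadjusted p below 0.05 at 1500 ng. Of all 13494 genes, that fit called 742 up and 897 down at 150 ng, and 332 up and 297 down at 1500 ng. Of 8 squamous gullet markers 7 were lower than with buffer at 500 ng and 4 at 1500 ng. Of 8 muscle markers 5 were lower at 500 ng (median -1.55) and 2 at 1500 ng (median -1.08). The part of these tissues in the result was not tested. The naive buffer group at 6 h holds 6 arrays, 2 of them with gullet keratins, and the 1500 ng counts were 0 up and 1 down without naive buffer replicate 5, 0 up and 2 down without replicate 2, and 7 up and 2 down without replicate 6. Calls over all 13494 genes moved too. They were 311 up and 496 down without replicate 5, 414 and 764 without replicate 2, and 1156 and 2257 without replicate 6.

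At 24 h in naive mice, 150 ng gave 1 call (0.215% of all genes), 500 ng none by limma (0%, with 3 members at an unadjusted p below 0.05) and 1500 ng 1 (0.978%). Beta-actin 3' minus 5' differed from buffer by 0.10, 0.052 and 0.32 at 150, 500 and 1500 ng. Dnajb1 read 11.38, 11.42 and 11.46 at 150 ng, against 11.66, 12.00 and 12.38 with buffer, and every 150 ng array was below every buffer array (-0.57, SE 0.13, adjusted p = 0.0188). Sec22a rose by 0.21 (SE 0.059, adjusted p = 0.0467) at 1500 ng, a call that 6 of the 8 other fits did not make, among them the one without the gullet arrays. Creb3l4 differed by 0.013 (adjusted p = 0.988), 0.072 (adjusted p = 0.993) and 0.021 (adjusted p = 0.958) in naive lungs at 24 h, and Hspa5 by 0.045 (adjusted p = 0.892), 0.061 (adjusted p = 0.978) and 0.039 (adjusted p = 0.826). The 2 control solutions differed in naive lungs at 6 h, where buffer against saline gave 6 higher and 3 lower members (8.09% and 6.83% of all genes), with Hyou1 higher by 1.06 (SE 0.24, adjusted p = 0.00127) and a Xbp1 difference of -0.22 (adjusted p = 0.0411). With the mean of its probe sets Xbp1 lay on the other side of 0, at 0.067 (adjusted p = 0.639), and with the beta-actin covariate it was at -0.22 (adjusted p = 0.0601), while Hyou1 was called with that covariate too. Of 8 muscle markers 1 was higher with buffer (median 1.09). Between them beta-actin 3' minus 5' differed by -0.28, and without the gullet arrays 4 members were called in place of 9. Over all 13494 genes 765 were then higher and 471 lower. In the other 3 settings buffer and saline gave no member call by limma (0.00741% of all genes in naive lungs at 24 h, 0.356% in OVA lungs at 6 h and 0.882% in OVA lungs at 24 h), with 2, 9 and 5 members at an unadjusted p below 0.05. There beta-actin 3' minus 5' differed by -0.13, 0.13 and 0.0098 in the same order.

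The 1500 ng effect was then compared between sensitization states and between times. At 6 h it differed between OVA and naive mice for 23 members, 17 with the higher difference in OVA and 6 with the lower (14% and 17.8% of all genes). The largest of these were Hyou1 (1.30, SE 0.33, adjusted p = 0.00154) and Sec24a (0.87, SE 0.22, adjusted p = 0.00157). Sec24d differed by 0.58 (adjusted p = 0.000568), Pdia3 by 0.58 (adjusted p = 0.000257), Creb3l1 by 0.54 (adjusted p = 0.00104) and Dnajb11 by 0.48 (adjusted p = 0.000236), and Pdia2 by -0.52 (adjusted p = 0.0308). With the covariate 7 members were called in this contrast (7.17% of all genes), with Sec24a at 0.83 (adjusted p = 0.0198), Creb3l1 at 0.57 (adjusted p = 0.00528) and Hyou1, no longer called, at 0.29 (adjusted p = 0.493). Pdia3, at 0.15 (adjusted p = 0.241), and Pdia2, at -0.20 (adjusted p = 0.558), were not called either. Without the gullet arrays 13 members were called, with 1322 up and 1423 down over all 13494 genes. In OVA mice the effect differed between 24 and 6 h for 35 members, 12 higher at 24 h and 23 lower (34.7% and 25.5%), and the covariate left 12 (23.4%). Creb3l4 had the higher difference at 24 h (0.56, adjusted p = 0.0045), as had Dnajb6 (0.61, adjusted p = 7.11e-07) and Pdia5 (0.50, adjusted p = 1.96e-07), and Hyou1 (-1.92, adjusted p = 1.44e-07), Hspa1a (-1.57, adjusted p = 0.0189) and Sec24a (-1.13, adjusted p = 2.93e-06) the lower. With the covariate the Hyou1 value was 0.20 (adjusted p = 0.653), on the other side of 0, the Creb3l4 value 0.25 (adjusted p = 0.445) and the Hspa1a value -1.49 (adjusted p = 0.149), while Dnajb6, Pdia5 and Sec24a were called in that fit too.

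Lungs taken 24 h after saline differed from those taken at 6 h in most members of OVA mice and in 27 members of naive mice. At 24 h, 20 members were higher and 10 lower than at 6 h in OVA lungs (25.3% and 35.7% of all genes), and 20 higher and 7 lower in naive lungs (25.1% and 36.1%). Of these, 15 were higher and 7 lower in both, which share no array; over all genes 2896 were higher in both, or 85.0% of those in OVA and 85.6% of those in naive lungs. Hyou1 read 9.74, 10.15 and 10.43 at 24 h and 6.79, 8.48 and 9.46 at 6 h in OVA saline lungs, and every 24 h array was above every 6 h array (1.97, SE 0.23, adjusted p = 1.75e-12). Sec24a (1.14 in OVA and 0.97 in naive lungs), Sec23a (0.97 and 0.89), Dnajb9 (0.71 and 0.62), Sec24d (0.55 and 0.47) and Canx (0.45 and 0.38) were all higher at 24 h. Pdia2 (-0.71 and -0.35) and Creb3 (-0.28 and -0.24) were lower. Beta-actin 3' minus 5' differed by -1.18 in OVA and -1.04 in naive lungs, and with it as a covariate 11 members were called in OVA (23.6% of all genes) and 19 in naive lungs (27%). Hyou1 then differed by 0.45 (adjusted p = 0.0984) in OVA lungs and Sec24a by 1.07 (adjusted p = 0.000119). Sec24a, Sec23a, Dnajb9, Sec24d and Canx were called with the covariate in both OVA and naive lungs, and Pdia2 and Creb3 in neither. Pdia2 was then at -0.23 (adjusted p = 0.288) in OVA lungs and at 0.072 (adjusted p = 0.757) in naive lungs, on the other side of 0, and Creb3 at -0.05 (adjusted p = 0.254) in OVA lungs and -0.034 (adjusted p = 0.412) in naive lungs.

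The members' relation to beta-actin 3' minus 5' could also be read among arrays of the same group, where treatment does not differ. Per unit of this measure, 9 members had a rising and 19 a falling slope (33% and 21.8% of all genes). Hyou1 had the steepest fall among the members, -1.29 (SE 0.11, adjusted p = 6.76e-21), the third lowest of the 13494 slopes, and its second probe set -0.083 (adjusted p = 0.252). The array with the highest beta-actin 3' minus 5', naive saline replicate 6 at 6 h (3.42), read 6.13 for Hyou1. The slopes were not refitted without that array. Pdia3 fell by 0.54 per unit (adjusted p = 2.81e-27) and Sec24b, a cargo-binding COPII subunit, by 0.38 (adjusted p = 4.31e-19). The highest slopes were those of Pdia2 (0.41, SE 0.083, adjusted p = 1.2e-05), Hspa1l, an Hsp70 known from the testis (0.26, SE 0.10, adjusted p = 0.024), and Creb3 (0.20, SE 0.017, adjusted p = 2.2e-20). For Creb3 the other 2 probe sets had slopes of -0.20 (adjusted p = 2.97e-05) and -0.45 (adjusted p = 6.54e-19), so the sign of its slope depends on the probe set. Hspa5 had a slope of -0.27 (SE 0.039, adjusted p = 1.78e-09) and Creb3l4 of 0.19 (SE 0.085, adjusted p = 0.0456). Dnajb9 had a slope of -0.16 (adjusted p = 0.0218). Those of Sec24a (-0.060, adjusted p = 0.648) and Sec23a (-0.17, adjusted p = 0.0851) did not pass the threshold. The probe sets of Xbp1 differed as well: the brightest, used throughout, gave 0.21 for 1500 ng in OVA lungs at 6 h and the other 2 gave 0.82 (adjusted p = 1.38e-12) and 0.50 (adjusted p = 1.01e-07).

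**Figure D4:**
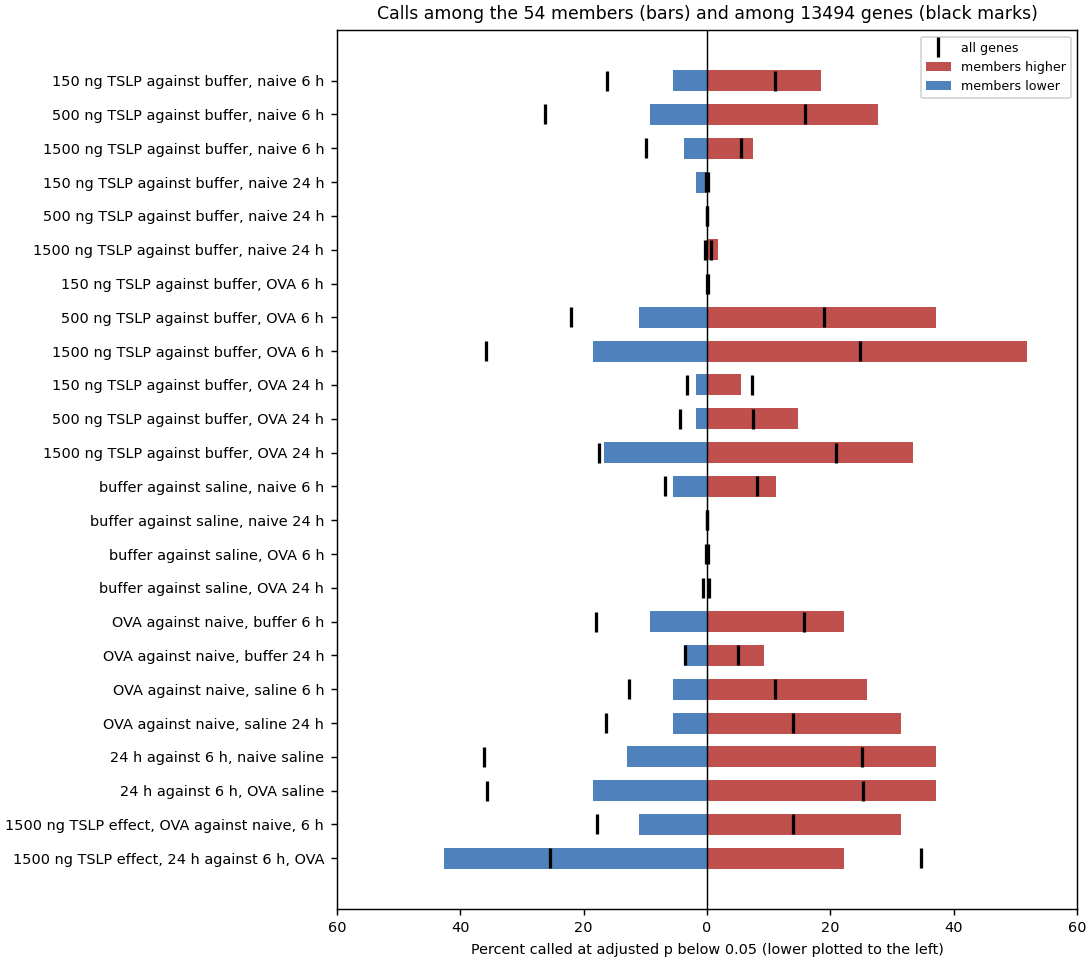
Percent of the 54 members called as higher (bars to the right) and lower (bars to the left) at an adjusted p below 0.05 in the 24 comparisons, with the percent of all 13494 genes as black marks. In OVA against naive saline lungs at 24 h the members' bar to the right reaches past the mark for all genes and the bar to the left stops short of it.

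Other genes of the same pathways, from lists that hold no member, were counted in the same fits. In OVA against naive saline lungs at 24 h, 14% of all genes were higher and 16.4% lower. Of 18 genes of the unfolded protein response sensors and ER-associated degradation 7 rose and 1 fell. The largest rises were Derl3, a degradation channel protein of secretory cells (2.34, SE 0.26, adjusted p = 2.19e-12), Ern2, the Ire1 form of mucous epithelia (1.64, SE 0.21, adjusted p = 1.69e-10), and Edem1, which passes misfolded glycoproteins to degradation (1.63, SE 0.20, adjusted p = 2.72e-11). Of the further ER folding proteins 10 of 18 rose and 0 fell, among them Sdf2l1, a BiP partner (1.28, adjusted p = 3.12e-07), Creld2 (0.77, adjusted p = 2.27e-08), Manf (0.58, adjusted p = 2.84e-06) and Hsp90b1 (Grp94; 0.40, adjusted p = 2.65e-05). Of the further translocation and N-glycosylation proteins 7 of 19 rose and 0 fell, of the further COPII and cargo receptor proteins 1 of 17 rose and 1 fell, and of the Atf4 targets 4 of 10 rose and 1 fell. With 1500 ng of TSLP in OVA lungs at 24 h the same 5 lists had 6 up and 2 down, 7 up and 0 down, 5 up and 3 down, 3 up and 5 down, and 2 up and 1 down. Of all genes 21% were up and 17.5% down there. Derl3 (0.84, adjusted p = 0.00751) and Ern2 (0.80, adjusted p = 0.00108) rose again, and so did Fkbp11, a prolyl isomerase of secretory cells (0.62, adjusted p = 2.44e-05), Creld2 (0.41, adjusted p = 0.0026) and Manf (0.40, adjusted p = 0.00104). At 6 h the counts with 1500 ng were 6 up and 3 down, 12 up and 2 down, 11 up and 3 down, 8 up and 5 down, and 3 up and 3 down, where 24.8% of all genes were up, 35.9% down and beta-actin 3' minus 5' differed by -1.31. With the covariate these became 0 up and 0 down, 2 up and 0 down, 0 up and 0 down, 5 up and 1 down, and 0 up and 0 down (7.72% of all genes in either direction). Derl3 and Txndc5 also stand in the plasma cell list.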

How the data were processed

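Lung RNA of single animals was labelled with a 3' kit, per the labels' protocols, which also give an RNA integrity number above 6 for all samples. The authors deposited 1 table of log2 expression values made with RMA, per the submitters' processing notes, which give no version. It holds 26166 probe sets, with array medians of 8.97 to 9.16. Of these, 22892 name 1 gene in the platform annotation, 260 name several and 3014 are not listed and were left out, as were those naming several. Each gene was read from its brightest probe set on average, which leaves 13494 genes. Groups were fitted in limma 3.58.1 (R 4.3.3) with lmFit and eBayes as 20 group means, and 24 contrasts and the slope on beta-actin 3' minus 5' were tested two-sided, with p-values adjusted over all genes by Benjamini-Hochberg and a threshold of 0.05. The test was checked on simulated data. Tables were made in Python 3.11.15.

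Replicates are animals. Alternatives were covariates for 3' minus 5', quantile normalization, the mean of probe sets, no dim genes (the lowest 40%), no gullet arrays, saline as the control, a replicate block and leaving out arrays. A fixed list of members was described in the text whatever their values, with the 5 largest rises and falls past the threshold of each comparison and the 3 highest and lowest slopes. Others are named as chosen after their values were seen. The members and lists were chosen with earlier results of these data known. Promoter windows are from RefSeq (GRCm38.p6).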

Additional observations from a re-analysis of the deposited data

Results flagged for a closer look

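Within groups, 21 of 220 tests for a single array apart from its group, over 10 genes and beta-actin 3' minus 5' (11 measures), passed Dixon's 95% critical value, where chance gives about 1 in 20. Naive saline replicate 3 at 24 h stood apart for 3 measures, with Pdia4 at 6.77, Hyou1 at 9.19 and beta-actin 3' minus 5' at 1.91. OVA 150 ng replicate 3 at 24 h stood apart for Hyou1 (9.39) and for beta-actin 3' minus 5' (1.94). OVA 150 ng replicate 2 at 6 h stood apart for Creb3l1 (9.64), Xbp1 (12.00), Hspa1b (11.45) and Sec23b (11.51). For Hspa1b single arrays also stood apart among the OVA 500 ng lungs at 24 h (12.86) and 6 h (11.24), the OVA buffer lungs at 6 h (10.88), the naive 150 ng lungs at 6 h (11.23) and the naive saline lungs at 6 h (11.03). The remaining single arrays were at 10.78 for Hyou1 in OVA 1500 ng lungs at 6 h, 9.01 for Hyou1 in naive 150 ng lungs at 6 h, 12.01 for Sec23b in OVA 500 ng lungs at 6 h, and 8.60 for Sec24d in naive 500 ng lungs at 6 h. Others were at 7.87 for Pdia4 in naive buffer lungs at 6 h (an array with gullet keratins), 9.76 for Creb3l1 in naive buffer lungs at 24 h, and 1.64 for beta-actin 3' minus 5' in OVA saline lungs at 24 h.

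The 1500 ng TSLP effect at 6 h differed between OVA and naive mice for 23 members. Of all genes 14% had the higher difference in OVA mice and 17.8% the lower. The largest positive differences were those of Hyou1 (1.30), Sec24a (0.87), Sec24d (0.58), Pdia3 (0.58) and Creb3l1 (0.54), and the largest negative ones those of Pdia2 (-0.52), Dnajb13 (-0.44), Hspa9 (-0.34), Hspa12b (-0.33) and Creb3l3 (-0.29). In OVA mice the effect differed between 24 and 6 h for 35 members, where 34.7% of all genes were higher at 24 h and 25.5% lower. Highest were Pdia2 (0.93), Dnajb6 (0.61), Creb3l4 (0.56), Dnajb13 (0.53) and Pdia5 (0.50). Lowest were Hyou1 (-1.92), Hspa1a (-1.57), Sec24a (-1.13), Pdia3 (-0.87) and Sec23a (-0.83). With the beta-actin covariate Hyou1 (0.20) and Pdia3 (0.020) lay on the other side of 0 in this contrast. Beta-actin 3' minus 5' differed by -1.31 with 1500 ng in OVA lungs at 6 h, -0.53 in naive lungs at 6 h and 0.32 in OVA lungs at 24 h, and its part in these differences was not tested apart from the covariate fits.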

How the results depend on the processing

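With beta-actin 3' minus 5' as a covariate the members called numbered 5 in OVA lungs at 6 h with 1500 ng and 3 with 500 ng, 6, 9 and 0 in naive lungs at 6 h with 150, 500 and 1500 ng, and 0 in naive lungs at 24 h with 1500 ng. They numbered 5 for naive buffer against saline at 6 h, 11 for 24 h against 6 h in OVA saline lungs, 7 for the 1500 ng effect in OVA against naive lungs and 12 for that effect at 24 h against 6 h. The covariate turned the sign of Pdia2 for 24 h against 6 h in naive lungs (0.072), and of Hyou1 (0.20) and Pdia3 (0.020) for the effect at 24 h against 6 h. With pyruvate carboxylase 3' minus 5', chosen after seeing the data because the planned Gapdh covariate was not run (Gapdh 3' and 5' probe sets were not among the values used here), counts were 7, 9 and 2 for OVA against naive in saline at 24 h, saline at 6 h and buffer at 24 h, and 1 and 4 for 150 and 500 ng in OVA lungs at 24 h. The mean of all probe sets gave 8 and 3 calls in naive lungs at 6 h with 150 and 1500 ng, and 0 at 24 h with 150 or with 1500 ng. It turned Hspa4 (0.045 at 150 ng and 0.10 at 500 ng in naive lungs at 6 h, and 0.25 for 24 h against 6 h in naive lungs), Creb3 (0.042 with 1500 ng in OVA lungs at 6 h, 0.015 for buffer against saline in naive lungs at 6 h, and a slope of -0.15), Xbp1 (0.067 for buffer against saline in naive lungs at 6 h), Hspa14 (0.17 for OVA against naive buffer lungs at 6 h) and Sec61a1 (0.021 for 24 h against 6 h in naive lungs), since it gives the other probe sets equal weight. Against saline the 1500 ng counts were 13 in OVA lungs at 24 h, 18 in naive lungs at 6 h and 0 in naive lungs at 24 h. Without the gullet arrays 4 members were called for naive buffer against saline at 6 h, 13 for the effect in OVA against naive lungs and 0 in naive lungs at 24 h with 1500 ng. Without dim genes 10 were called for OVA against naive buffer lungs at 6 h, and quantile normalization gave 0 in naive lungs at 24 h with 1500 ng. Leaving out 1 array at a time gave 1 to 9 calls in naive lungs at 6 h, 0 to 1 in naive lungs at 24 h, 34 to 38 in OVA lungs at 6 h and 21 to 28 in OVA lungs at 24 h, all with 1500 ng. The replicate block gave 0 calls in naive lungs at 24 h with 1500 ng and moved no other count by over 1.5 times, but the numbers do not pair the animals: 1314 same-number pairs had a median correlation of 0.00754, and 16 arrays correlated best with their own number. Calls over all genes moved too. For 1500 ng in OVA lungs at 6 h, 3350 up and 4844 down became 358 and 684 with the beta-actin covariate. Where no share of all genes is given, a count here cannot be read as a trait of the members. Where no value shows it, the cause was not tested.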

Other observations

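Some members with roles outside secretion also differed. Dnajb13, a DnaJ protein of the ciliary axoneme, was higher in OVA than in naive buffer lungs at 6 h (0.37, adjusted p = 0.0182) and lower with 1500 ng of TSLP than with buffer in OVA lungs at 6 h (-0.34, adjusted p = 0.00897), a call lost with the beta-actin covariate, at -0.31 (adjusted p = 0.212). Hspa2, an Hsp70 known from the testis, read 9.75, 9.89 and 10.14 (lowest, median and highest array) with 1500 ng, against 9.36, 9.60 and 9.73 with buffer, in OVA lungs at 24 h. Every 1500 ng array was above every buffer array for this gene (0.33, SE 0.067, adjusted p = 3.44e-05), and Dnajb5 was higher by 0.26 (adjusted p = 0.0433), lost with the covariate at 0.19 (adjusted p = 0.146).

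Among Atf4 targets, Slc7a11, the cystine transporter, was higher in OVA than in naive saline lungs at 24 h (1.33, adjusted p = 1.98e-05), as was the stress factor Atf3 (1.12, adjusted p = 2.38e-08), while Vldlr was lower (-0.65, adjusted p = 5.63e-06). Of the signal peptidase partners, Spcs3 was higher by 0.61 (adjusted p = 3.64e-08) in the same comparison, and of the glycan chain transfer complex, Rpn1 rose by 0.37 (adjusted p = 8.07e-08) with 1500 ng of TSLP in OVA lungs at 24 h. Kdelr2, a retrieval receptor for ER proteins, differed by 0.77 (adjusted p = 8.06e-13) with 1500 ng in OVA lungs at 6 h, where beta-actin 3' minus 5' differed by -1.31 and the covariate left 0.28 (adjusted p = 0.0754). These genes were named after their values were seen.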
